A study of Mus musculus with 16 samples.

Results

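Messenger RNA of 8 enzymes that turn lanosterol, the first sterol, into cholesterol was followed across 16 MC38 tumors. The 8 genes, Cyp51, Tm7sf2, Msmo1, Nsdhl, Hsd17b7, Ebp, Sc5d and Dhcr7, were chosen by name for their place in the pathway, and each matched 1 of the 53465 mouse genes in the table of counts. MC38 is a mouse colorectal carcinoma cell line, and its cells were injected under the skin of female C57BL/6 mice aged 6 to 8 weeks. Mice whose tumors measured 150 to 250 mm3 on day 16 were randomly given 200 ug of control IgG or of antibody against the checkpoint receptor PD-1 (aPD-1) on days 16 and 20, and tumors were taken on day 21. The groups were 8 IgG control tumors (replicates 1 to 8), 6 aPD-1 non-responder tumors (replicates 9 to 14) and 2 aPD-1 responder tumors (replicates 15 and 16), each from its own mouse. The study called a treated tumor a responder from CD8 T cell staining of that tumor, so treatment was assigned at random and response was not. The model is 1 cell line in 1 host strain, and the RNA came from 2 frozen sections that held tumor cells together with the cells of the host.

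After the ring closure that makes lanosterol, cells remove 3 methyl groups, reduce and shift double bonds and so arrive at cholesterol. Cyp51 is the cytochrome P450 that takes off the first methyl group, and Tm7sf2 is a sterol reductase that acts on its product. Msmo1, Nsdhl and Hsd17b7 work in turn to remove the other methyl groups, Ebp shifts a double bond, Sc5d adds one and Dhcr7 reduces one. When sterol in the endoplasmic reticulum is low, the transcription factor SREBP-2 is released and drives the genes of the pathway, working with the factors NF-Y and Sp1 at many of their promoters.

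Total counts lay between 26603449 and 39948866 per tumor, with a median of 34105782. IgG control replicate 1 had the lowest total and the highest share of mitochondrial counts, 7.60%, and non-responder replicates 9 and 14 followed with 6.00% and 5.73%, whereas the other 13 tumors had 2.52% to 3.25%. The responders stood apart in their cell content. All 6 B cell markers, all 5 T cell markers and all 5 fat cell markers passed an adjusted p of 0.05 in edgeR as higher in responders than in non-responders, where 15.4% of genes did. The summed level of the B cell markers was 360 to 1246 CPM, the counts of a gene scaled to the size of its library, in responders and 9.93 to 17.1 CPM in non-responders, and that of the fat cell markers was 213 to 1180 CPM against 19.3 to 50.2 CPM. Of the 6 proliferation markers 1 passed as lower, with sums of 1487 to 1960 CPM in responders and 1566 to 2459 CPM in non-responders. Markers of colon epithelium, the labelled origin of the line, were close to absent in the other groups: the 7 genes summed to 4.61 to 12.2 CPM in IgG control and non-responder tumors and to 50.5 to 116 CPM in responders, and Cdx2 was at 0 in 15 tumors. The part of this cell content in the values that follow was not tested, and in bulk RNA fewer cells that make an enzyme and less of its RNA per cell cannot be told apart.

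The promoters of the 8 genes, like those of the earlier steps of the pathway, held a common short motif. CCAAT, the letters bound by NF-Y, was present on either strand in a window of 250 bases before to 50 bases after the RefSeq start of 8 of 8 genes, against 37.4% of all 32851 windows of that length. The GC box GGGCGG, a form of the Sp1 site, was also present for 8 of 8 genes, against 35.7% of windows. Of the earlier steps from Hmgcs1 to Sqle, 5 genes had a window in the table, and CCAAT was present for 5 of these and the GC box for 4, so neither motif sets the enzymes after lanosterol apart. The E-box CACGTG was found for 3 of 8 genes, against 7.15% of windows, and TCACNCCAC, a form of the sterol regulatory element, for 0 of 8, against 1.24%. A gene counted if any of its windows matched, whereas the background is a share of single windows. Dhcr7 had 3 windows, with its E-box and its CCAAT in different ones, so the 2 kinds of share are not fully alike. A match is a run of letters and not a measured binding site. Sites that differ from these letters are missed, so 0 of 8 does not mean that the element is absent. The last CCAAT before the start of each gene is shown with its surroundings because all 8 promoters hold one. Nsdhl has further matches after its start. Each line gives 30 bases on the strand of the gene, from RefSeq on GRCm38.p6, with CCAAT or its reverse complement in capitals. In GENCODE 5 of the 30-base stretches touched an annotated exon of the gene itself and 3 lay outside the gene, and that of Tm7sf2 also touched an exon of Vps51.
Cyp51 (chr5:4104709-4104738, minus strand): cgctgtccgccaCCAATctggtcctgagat
Tm7sf2 (chr19:6067880-6067909, minus strand): ctcccagcgctgATTGGctactgtgctggg
Msmo1 (chr8:64733616-64733645, minus strand): gagtggggcggaCCAATtacgacaggcgag
Nsdhl (chrX:72918489-72918518, plus strand): aagactagcctcATTGGgcaaaatcatgct
Hsd17b7 (chr1:169969200-169969229, minus strand): ggccgagccttgATTGGtcgaggtgcgcgt
Ebp (chrX:8193550-8193579, minus strand): atccctgtactgATTGGttcgtcagattcg
Sc5d (chr9:42264307-42264336, minus strand): cgccggctgctgATTGGccggctgcctgca
Dhcr7 (chr7:143830153-143830182, plus strand): aatccacttccgATTGGtcgtctgtgacct
The motif began 12 bases before the start in Hsd17b7 and 55 bases before it in Msmo1 and in Ebp. In Dhcr7 only the last of its 3 RefSeq starts had the motif.

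Per length of exon, Cyp51 was the most abundant of the 8 messages in 16 of 16 tumors, and Tm7sf2 the least abundant in 16 of 16. The median over all tumors was 32.1 CPM per kilobase for Cyp51 and 0.767 CPM per kilobase for Tm7sf2. Between them the medians were 12.5 CPM per kilobase for Msmo1, 9.11 for Sc5d and 9.11 for Ebp, 7.32 for Nsdhl, 4.30 for Hsd17b7 and 3.69 for Dhcr7, and neighbors in this order overlapped in range except Dhcr7, at 3.11 to 5.84, and Tm7sf2, at 0.448 to 1.23. With the longest transcript as the length, Cyp51 was highest in 16 tumors and Tm7sf2 lowest in 15, all but IgG control replicate 1, and the order between them changed: the medians were 25.8 CPM per kilobase for Msmo1, 12.1 for Ebp, 9.64 for Nsdhl, 9.26 for Sc5d, 7.63 for Dhcr7 and 4.76 for Hsd17b7. Cyp51 (ENSMUSG00000001467, chr5:4081145-4104746 on GRCm38, minus strand) had 2003 to 8616 counts per tumor. Tm7sf2 (ENSMUSG00000024799, chr19:6062821-6068373, minus strand) had 76 to 176 counts per tumor and shares part of its locus with Vps51 on the same strand. Its counts were not whole in 15 of 16 tumors, as RSEM gives where reads are divided between genes, so its values are less certain than those of the other 7 genes, whose counts were whole throughout.

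**Figure D1:**
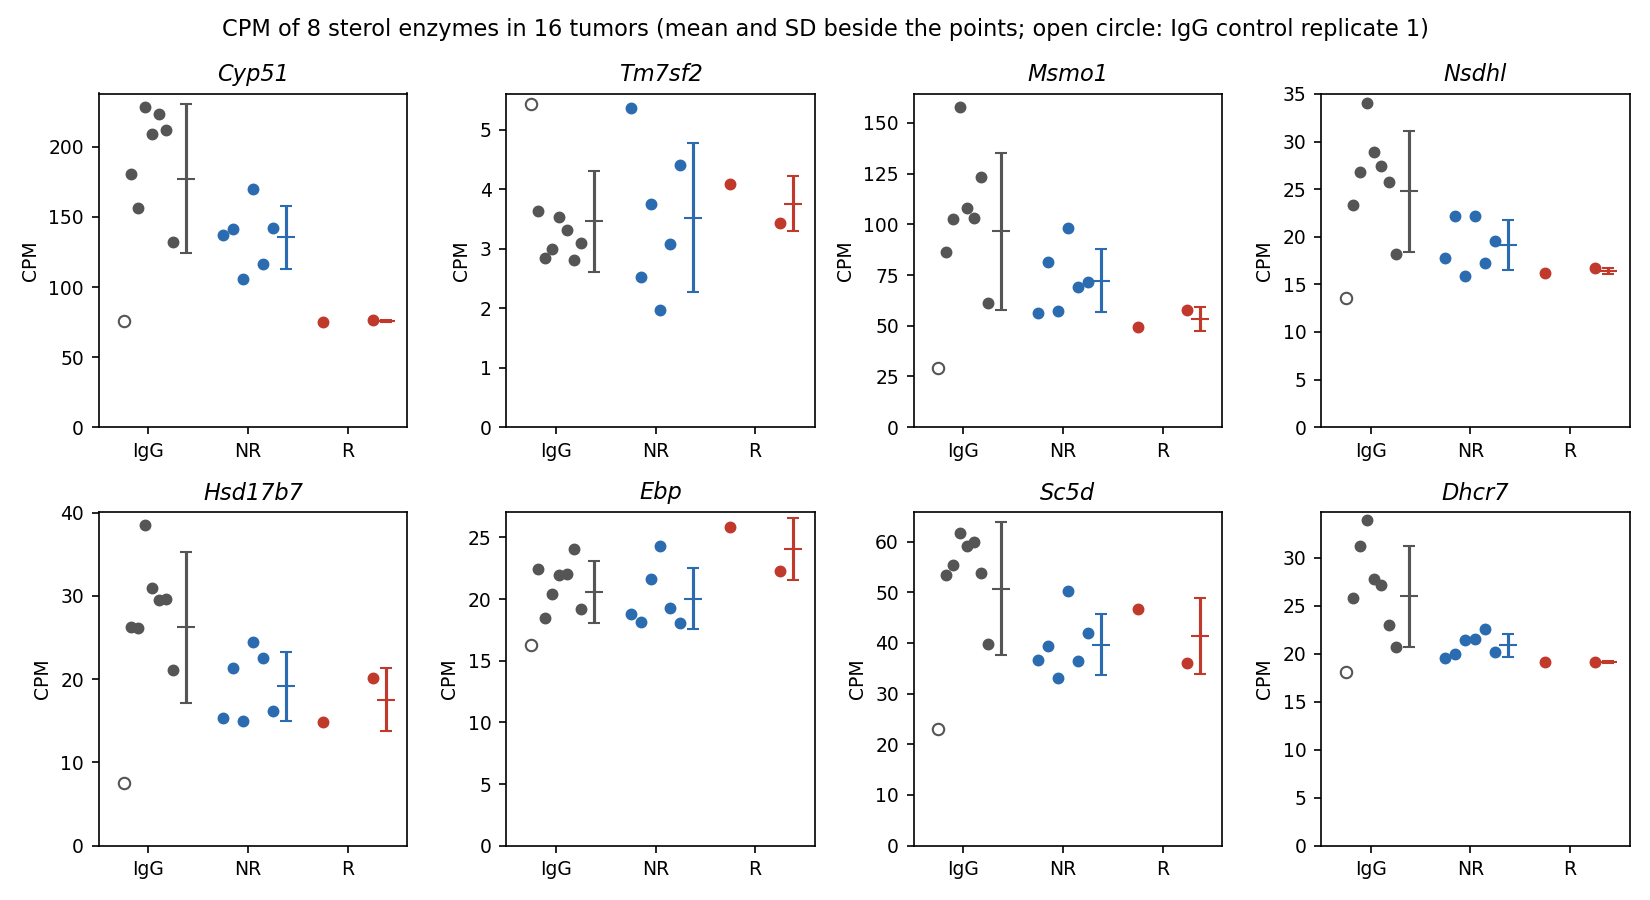
CPM of each enzyme (vertical axis, from 0) in tumors of the controls (IgG), the non-responders (NR) and the responders (R), 1 point per tumor, with the group mean and SD beside the points. The open circle is IgG control replicate 1, which was the lowest IgG control tumor for 7 of 8 enzymes and the highest for Tm7sf2.

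The comparison of responder with non-responder tumors asks how the enzymes differ with the response. Cyp51 was 75.3 and 76.5 CPM in the responders, and in the non-responders it ran from 105.6 to 169.9 CPM with a median of 139.2 CPM. Both responders lay below all 6 non-responders. Responders had a mean of 75.9 ± 0.808 CPM (SD, n = 2) and non-responders one of 135 ± 22.5 CPM (SD, n = 6). The log2 fold change was -0.83 (SE 0.31, edgeR adjusted p = 0.0737) and did not pass the threshold of 0.05. Cyp51 did pass in DESeq2 (adjusted p = 0.0308) and in 3 further alternatives: with the mitochondrial share as a covariate (0.0207), without the 3 tumors with most mitochondrial counts (0.0110) and in a fit of these 2 groups alone (0.00867). Its log2 fold change was -0.96 to -0.84 in these 4 alternatives, in which 22.4%, 29.8%, 32.6% and 19.2% of genes were called, in the order given.

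None of the other 7 enzymes passed in any alternative. In the main test 0 of 8 passed, where 19.7% of the 18251 genes tested did and 4.34% did as lower. The median log2 fold change of the 8 was -0.13, beside 0.02 over all genes. Msmo1, the sterol methyl oxidase, was 49.3 and 57.7 CPM in responders and 56.3 to 98.0 CPM (median 70.2) in non-responders, and the groups overlapped (log2 fold change -0.43, edgeR adjusted p = 0.527). Dhcr7, the last reductase, was 19.2 and 19.1 CPM in responders, just under the lowest of the non-responders at 19.5 CPM (log2 fold change -0.12, 95% interval -0.51 to 0.26). Cyp51 and Dhcr7 were thus the 2 of 8 enzymes with both responders below all non-responders, as were 13.2% of all genes. Nsdhl at -0.22, Hsd17b7 at -0.13, Sc5d at 0.06 and Tm7sf2 at 0.10 had log2 fold changes near 0. Their 95% intervals were wide: -0.74 to 0.31, -0.93 to 0.67, -0.50 to 0.62 and -0.59 to 0.79, in the order given. Ebp, the isomerase, was 25.8 and 22.2 CPM in responders and 18.1 to 24.3 CPM in non-responders (log2 fold change 0.26, 95% interval -0.05 to 0.58).

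Within a tumor, Cyp51 was set against each of the other enzymes, since such a ratio does not depend on the scaling between tumors. Cyp51 was taken as the reference with its low level in responders already known, and the 7 ratios share it, so they are not independent. The log2 ratio of Cyp51 to Sc5d was 0.69 and 1.09 in the responders and 1.67 to 1.90 in the non-responders. The ratio to Ebp was 1.55 and 1.78 in the responders and 2.29 to 2.97 in the non-responders. All 7 ratios were lower in both responders than in every non-responder. Against each of the other 18250 tested genes in turn, Cyp51 gave the same order for 67.9% of genes. The mean difference was largest for Ebp, at -1.08, and smallest for Msmo1, at -0.41. In an exact permutation test, two-sided, 5 ratios reached 0.0357, the smallest p that 28 splits allow (adjusted p = 0.05 over the 7 ratios, which is not under the threshold). The ratio to Msmo1 gave an exact permutation p of 0.0714 and that to Tm7sf2 one of 0.107.

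**Figure D2:**
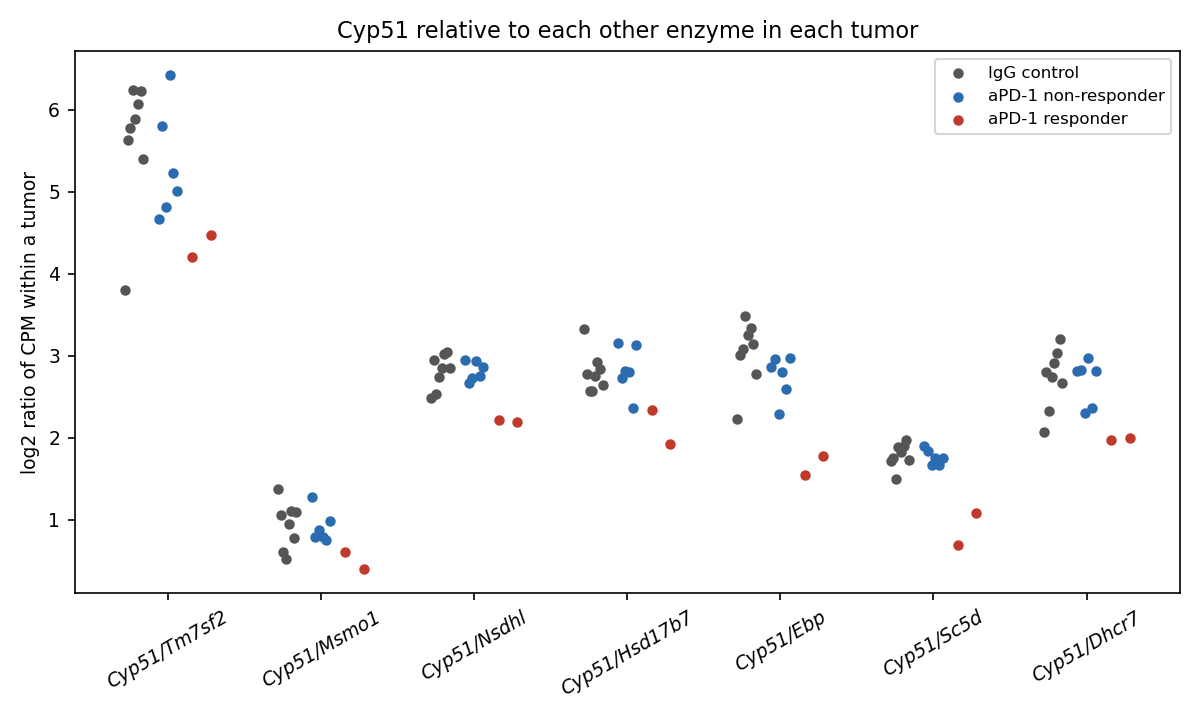
Log2 ratio of the CPM of Cyp51 to that of each other enzyme within a tumor (vertical axis), 1 point per tumor, by group. The responder points lie below all non-responder points in each of the 7 columns.

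Non-responders were set against IgG controls to see how treated tumors without infiltration differ from untreated ones. Most of the enzymes were lower in non-responders, by similar amounts, and no enzyme passed the test. The log2 fold changes were -0.45 for Hsd17b7, -0.42 for Msmo1, -0.39 for Cyp51, -0.37 for Nsdhl, -0.36 for Sc5d and -0.32 for Dhcr7. Ebp at -0.04 and Tm7sf2 at 0.02 were close to 0. For the first 6 enzymes every one of the 6 non-responders lay below the median of the IgG controls, as was the case for 5.92% of all genes. By edgeR 0 of 18251 genes passed an adjusted p of 0.05 (0.0% of genes), and DESeq2 called 10 genes, none of them among the 8. At an unadjusted p under 0.05 in edgeR stood 694 genes (3.8%). Of the 8 enzymes 2 were among them, Nsdhl and Dhcr7, both lower, where 1.24% of genes were at this level as lower. Without IgG control replicate 1 these were 6 of 8 enzymes and 7.98% of genes, and with the mitochondrial share as a covariate 1 enzyme, Dhcr7, and 1.71% of genes. Replicate 1 was the lowest control for each of those 6, so leaving it out raised their control means.

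With all 8 treated tumors set against the 8 controls, the comparison that follows the random assignment, the same 6 enzymes were lower in means. Cyp51 differed by -0.55 on the log2 scale, Msmo1 by -0.51, Hsd17b7 by -0.48, Nsdhl by -0.41, Dhcr7 by -0.34 and Sc5d by -0.33. For each of these 6, all 8 treated tumors lay below the median of the IgG controls, against 3.78% of all genes. Here too the 6 are not separate observations, since most of the enzymes varied together. No gene of the 15775 tested passed in edgeR (0.0%), and DESeq2 called 86, none of the 8 enzymes among them. An unadjusted p under 0.05 in edgeR was reached by 11.4% of genes and, as lower, by 2.23% of genes and by 4 of the 8 enzymes, Cyp51, Nsdhl, Hsd17b7 and Dhcr7. Without IgG control replicate 1 it was reached as lower by 6 enzymes and 9.88% of genes, and with the mitochondrial covariate by 2 enzymes, Nsdhl and Dhcr7, and 3.41% of genes. For those 6, replicate 1 was the lowest control, as above. The lowest adjusted p of the 8 was that of Dhcr7 (edgeR, 0.260). These comparisons share the treated or the control tumors with the others, so they do not stand as separate evidence.

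**Figure D3:**
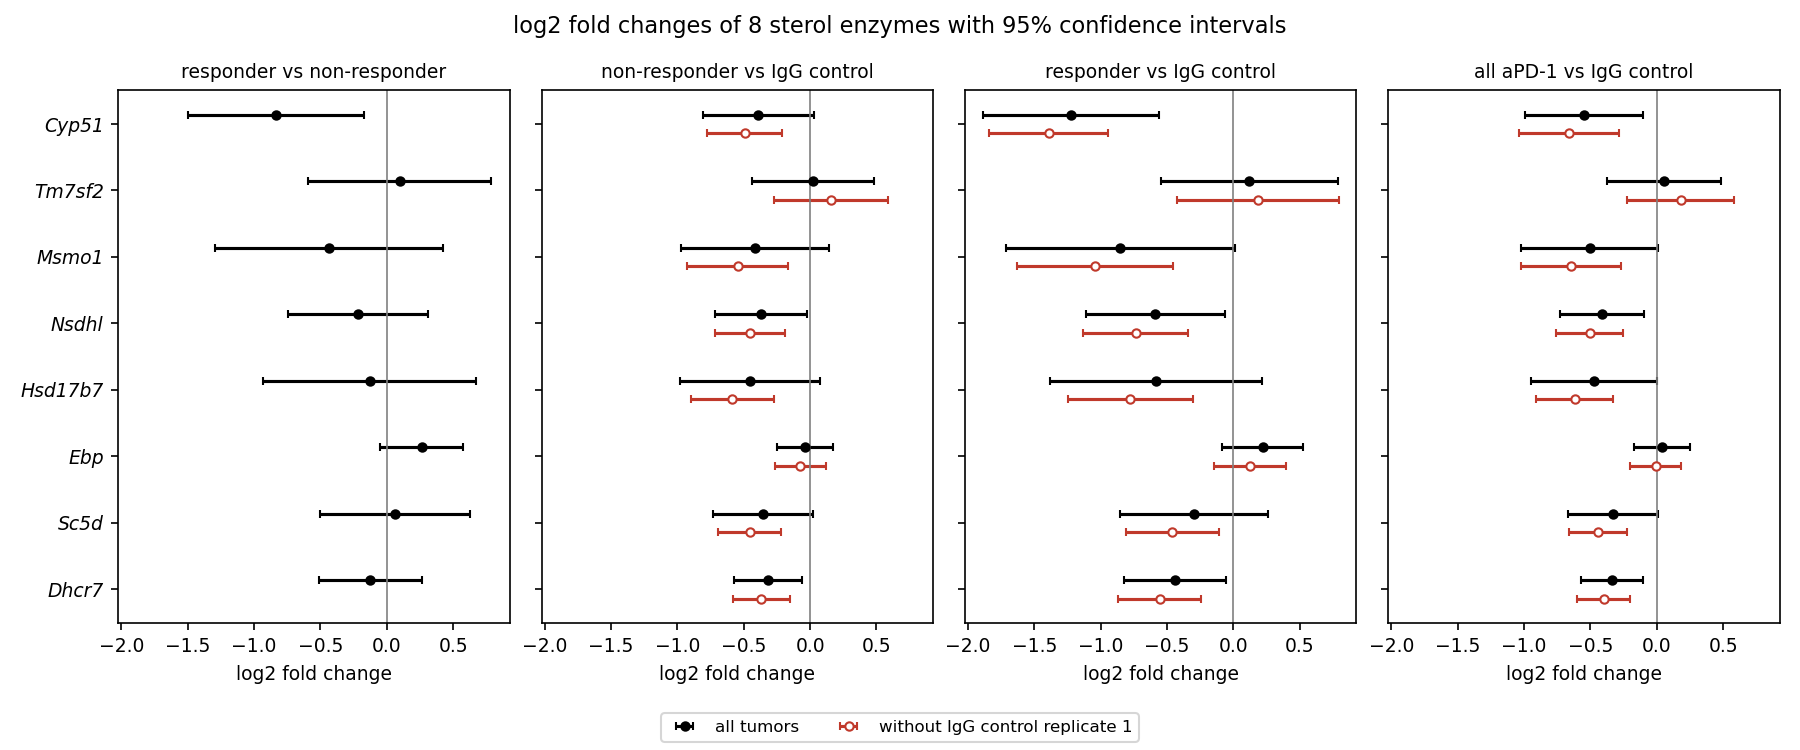
Log2 fold changes of the 8 enzymes (horizontal axis) with 95% confidence intervals from edgeR in the 4 comparisons, with all tumors (black) and without IgG control replicate 1 (red, where that group takes part). In the third panel Cyp51 lies at -1.22 with all tumors and at -1.39 without that replicate.

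Responders were set against the IgG controls last, and Cyp51 again had the largest difference of the 8 enzymes. In the IgG controls Cyp51 ran from 76.1 to 228.3 CPM with a median of 195 CPM. The lowest control, replicate 1, was level with the responders at 75.3 and 76.5 CPM, and the other 7 controls were all at or above 131.9 CPM. Cyp51 fell by 1.22 on the log2 scale (SE 0.31, edgeR adjusted p = 0.00871), to 0.428 of the control level. Among all genes, 5.17% passed as lower and 0.641% passed with a log2 fold change under -1. The call rests on both responders: without replicate 15 the adjusted p was 0.109 and without replicate 16 it was 0.0551, at log2 fold changes of -1.29 and -1.29 by edgeR.

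The other enzymes did not pass with all tumors. Msmo1 ran from 29.2 to 158.1 CPM in the controls with a median of 102.8 CPM (log2 fold change -0.85, edgeR adjusted p = 0.155). Nsdhl, the sterol dehydrogenase, was 16.2 and 16.7 CPM in responders and 13.6 to 34.0 CPM in controls, with a median of 26.3 CPM (-0.59, edgeR adjusted p = 0.102). Hsd17b7, the ketoreductase, was 14.8 and 20.2 CPM in responders and 7.56 to 38.5 CPM in controls (-0.58, edgeR adjusted p = 0.312). IgG control replicate 1 was the only control that was not above both responders for these 3 enzymes and for Dhcr7, and for Sc5d replicate 8 joined it. With it kept, 0 of 8 enzymes had both responders below all controls, as 9.67% of genes did. Dhcr7 was 18.1 to 34.0 CPM in controls (-0.44, edgeR adjusted p = 0.0954), and Sc5d was 46.6 and 36.0 CPM in responders and 23.0 to 61.6 CPM in controls (-0.30). Ebp, at 16.3 to 24.0 CPM in controls, and Tm7sf2, at 2.81 to 5.43 CPM, had log2 fold changes of 0.22 and 0.12.

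Without IgG control replicate 1, the shallowest library, 6 of 8 enzymes passed as lower in responders by edgeR, where 12.3% of genes did. Cyp51 was at -1.39 (adjusted p = 0.000113), Msmo1 at -1.04 (0.00900), Hsd17b7 at -0.78 (0.0141), Nsdhl at -0.74 (0.00699), Dhcr7 at -0.56 (0.00957) and Sc5d at -0.46 (0.0444). Cyp51, Msmo1, Nsdhl, Hsd17b7 and Dhcr7 then had both responders below the 7 other controls, as did 17.6% of genes. That order was fixed by leaving out replicate 1, the only control not above both responders for these enzymes. Replicate 1 was also the lowest control for each of the 6 that passed, so these calls are not separate support. With the mitochondrial share as a covariate and all tumors kept, 3 enzymes passed: Cyp51, Nsdhl and Dhcr7, where 12.6% of genes passed as lower. Without the 3 tumors with most mitochondrial counts the same 6 enzymes passed as without replicate 1, which is 1 of these tumors. There 19.6% of genes passed as lower. Ebp and Tm7sf2 passed in none of these.

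The enzymes before lanosterol give the setting of these differences. Of 8 genes from Hmgcs1 to Sqle, 7 had a lower mean in responders than in non-responders, with a median log2 fold change of -0.45, and 0 passed. The lowest was Fdps, which makes farnesyl diphosphate, at -0.86, and the highest was Idi1, an isomerase of the isoprenoid steps, at 0.05. Against the IgG controls all 8 were lower, with a median of -0.79, and 4 of 8 passed, Mvk, Fdps, Fdft1 and Sqle, where 5.17% of genes passed as lower. Between responders and non-responders, Cyp51 lay at the level of Fdps and of Sqle, the squalene epoxidase, at -0.82. Fdft1 at -0.65 and Mvk at -0.62 came next. Pmvk at -0.28, Mvd at -0.19, Hmgcs1 at -0.13 and Idi1 lay nearer to 0. The median of the 8 enzymes after lanosterol was -0.13, with Msmo1 at -0.43, so the values of the 2 sets overlapped.

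**Figure D4:**
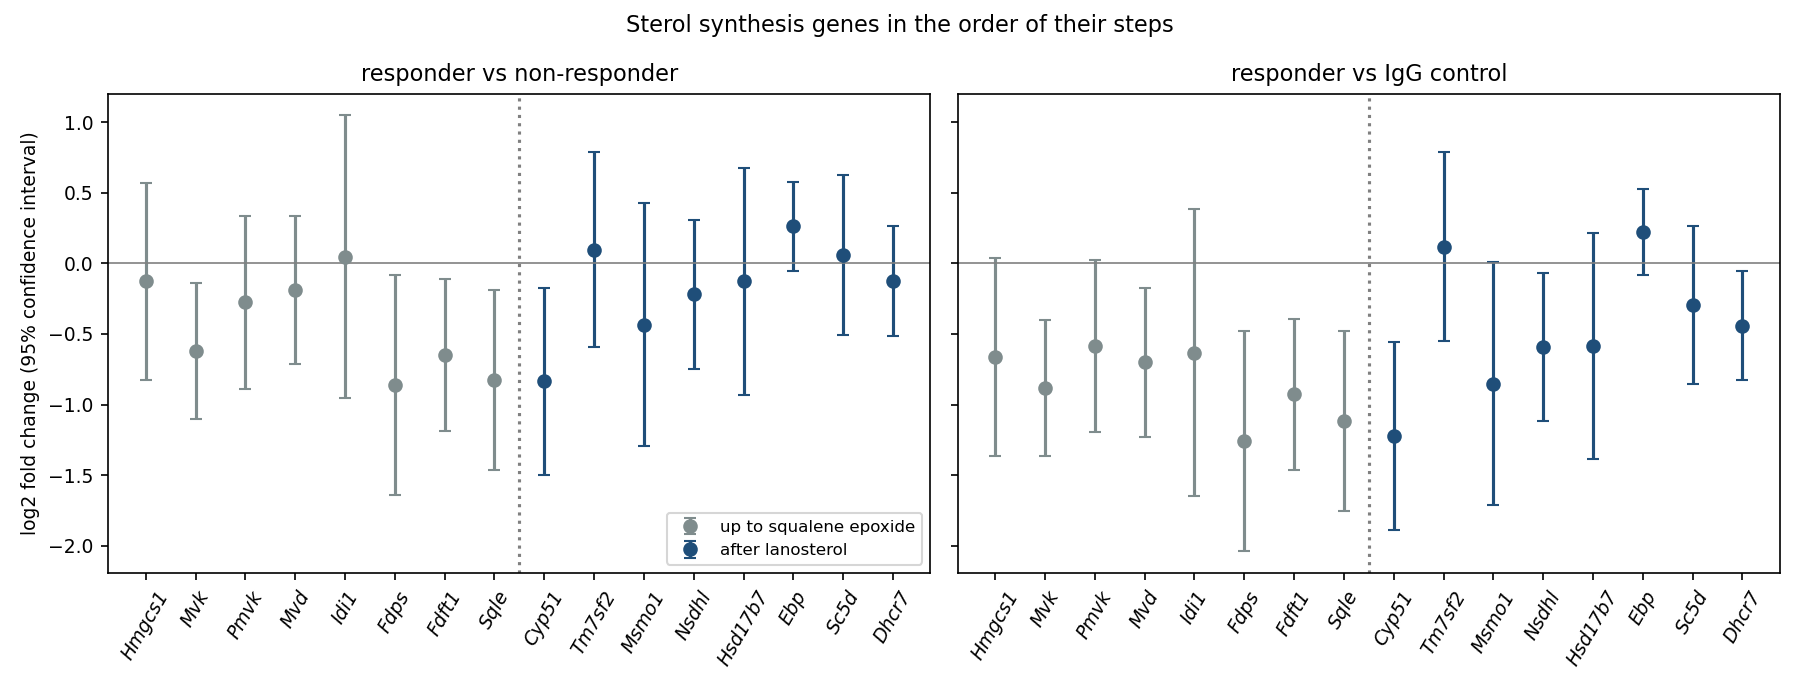
Log2 fold changes (vertical axis, with 95% confidence intervals from edgeR) of 8 earlier genes of the pathway (grey) and the 8 enzymes after lanosterol (blue), in the order of their steps, for responders against non-responders (left) and against IgG controls (right). On the left the enzymes after Cyp51 lie between -0.43 and 0.26.

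Genes that control or assist the pathway were also read. Of 5 genes of control and uptake, 0 passed between responders and non-responders: Insig1, which holds the SREBP complex in the endoplasmic reticulum and is itself a target of it, was lowest at -0.66, and Insig2 was highest at 0.20. Insig1 passed against the IgG controls (-0.84, edgeR adjusted p = 0.0264), where 5.17% of genes did as lower. Of 7 redox partners, parallel enzymes and scaffold genes, 0 passed between responders and non-responders. Erg28, a scaffold of the enzymes that remove the methyl groups, was lowest at -0.45, and Cyb5a, a cytochrome b5 that passes electrons to several of these enzymes, was highest at 0.42. Cyb5a passed as higher in responders than in IgG controls (0.60, edgeR adjusted p = 0.0116), where 17.7% of genes did.

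Across tumors, with each group's mean subtracted, most of the enzymes varied together. Over 16 tumors the median Pearson's r of the 28 pairs was 0.72, and 24 pairs passed an adjusted p of 0.05 in a permutation test within groups (two-sided, 100000 resamples), whereas 13 passed with Spearman's rho. Msmo1 and Nsdhl were the closest pair (r = 0.96, rho = 0.91, permutation adjusted p = 0.000350 for r). Msmo1 and Hsd17b7 came next (r = 0.95, rho = 0.88, permutation adjusted p = 0.000350 for r), and Cyp51 and Sc5d had an r of 0.94 and a rho of 0.83. Among Cyp51, Msmo1, Nsdhl, Hsd17b7 and Sc5d, a group picked after seeing the values, r lay between 0.88 and 0.96. Ebp was less close, at 0.34 to 0.67 with the enzymes other than Tm7sf2. Tm7sf2 ran the other way, with r of -0.71 to -0.42 to all 7 others.

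A single tumor carried much of this. IgG control replicate 1 was below its group mean for 7 of 8 enzymes, and without it 9 pairs passed and the median r was 0.49. Leaving out the 2 tumors farthest from the median of the first enzyme of each pair gave a median r of 0.41, with a highest r of 0.89 for Msmo1 and Nsdhl. Among the 5 enzymes just named the lowest r without replicate 1 was 0.54, for Hsd17b7 and Sc5d. Within the 8 IgG controls 19 pairs passed, and within the 6 non-responders 0 did, with median r of 0.83 and 0.36. Those 8 controls include replicate 1, and r within the controls was not taken without it. A difference between the 2 groups thus cannot be told apart from the part of that tumor. Tm7sf2 had a negative r to all 7 others within both groups and without replicate 1, but without that replicate its median r moved from -0.56 to -0.28 and 0 of its 7 pairs passed, in place of 5. Without the 3 tumors with most mitochondrial counts 6 of its 7 values were negative.

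**Figure D5:**
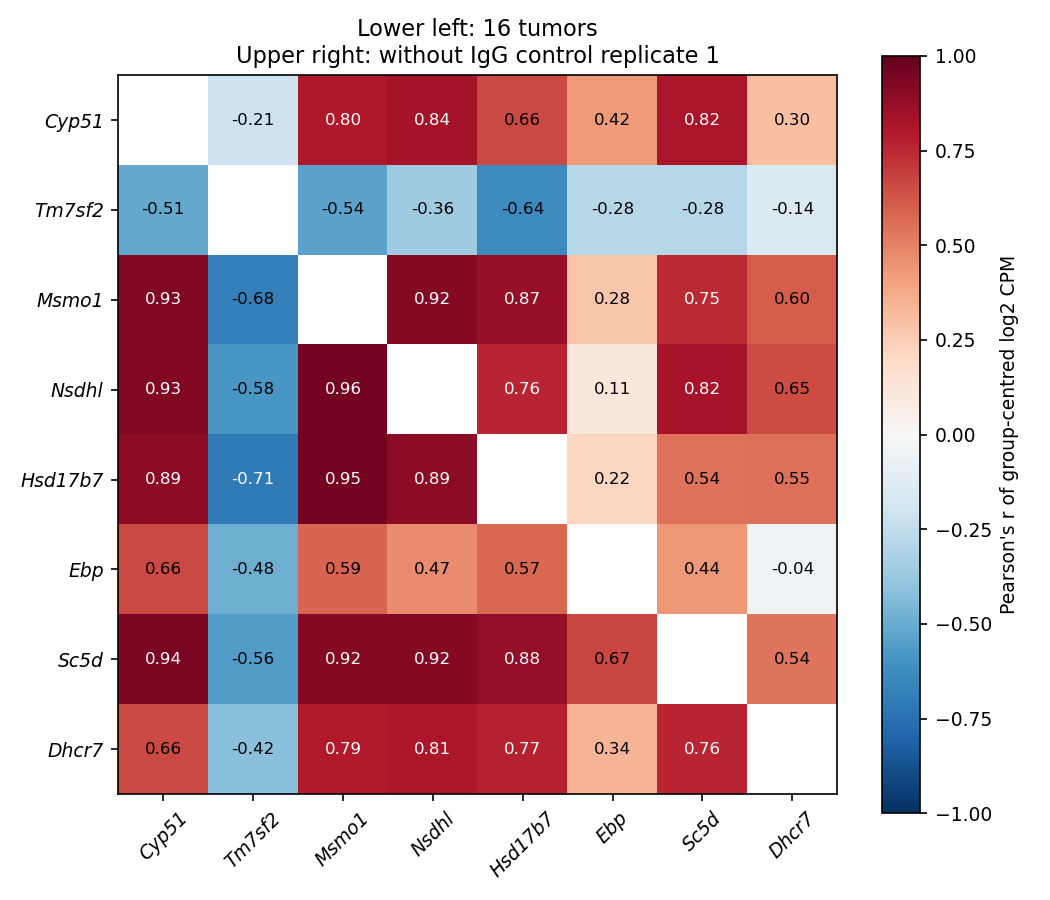
Pearson's r of group-centred log2 CPM for each pair of enzymes (color scale from -1 to 1), over 16 tumors in the lower left and without IgG control replicate 1 in the upper right. Most values are nearer to 0 in the upper right, while Msmo1 and Nsdhl stay at 0.92.

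Of the 12032 tested genes that averaged 100 counts or more, the 5 genes other than the 8 enzymes that ran closest to their mean over the 16 tumors were Hmgcs1 (r = 0.97), Pmvk (0.97), Acat2 (0.97), Sqle (0.95) and Fdps (0.94). These values are a description, and without IgG control replicate 1 they were 0.94, 0.93, 0.88, 0.85 and 0.81. Without that tumor Fdft1, at 0.90, lay above Acat2, Sqle and Fdps, so which 5 genes are closest depends on it.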

How the data were processed

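RNA from 16 MC38 tumors was enriched for polyA and made into strand-specific libraries. Per the labels and the submitters' processing notes, the tools were STAR 2.6 and RSEM 1.3.0 with GRCm38. The values are expected counts per gene, as deposited by the authors, in 1 table of 53557 rows, of which 92 spike-in entries (at most 185 counts in a tumor) were left out. Expected counts were rounded to whole numbers here, and 7.84% had not been whole. Gene positions came from the GENCODE annotation of GRCm38 and promoters from RefSeq.

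Differential expression was tested with edgeR 4.0.16 in R 4.3.3 (TMM scaling, filterByExpr, robust quasi-likelihood test) in 1 fit of 3 groups, and in a fit of 2 treatments for all aPD-1 tumors. Benjamini-Hochberg adjustment covered all genes tested (18251 and 15775), with a threshold of 0.05. The study used DESeq2, run here as an alternative (1.42.0). Of these steps, the edgeR comparisons between groups were tested on simulated data. CPM used the TMM-scaled library, and log2 CPM a prior count of 0.5. Ratios were compared by exact permutation and pairs by permutation within groups, in Python 3.11.15 with scipy 1.17.1. Alternatives were other scalings and filters (no filter, or 10 counts in 8 tumors), a mitochondrial covariate, leaving out each tumor, a prior count of 2 and the longest transcript as length. Leaving out the 3 tumors with most mitochondrial counts, and each tumor in the pairs other than IgG control replicate 1, was chosen after seeing the data. Genes named were all 8 enzymes and, of the other lists, those past the threshold in responders against non-responders, otherwise the lowest and highest, and the 5 genes closest to the mean of the enzymes. Others named, such as those past the threshold against IgG controls, were named after their values were seen. The enzymes and gene lists were chosen with earlier results of these data known. Spike-ins and spatial data were not used here.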

Additional observations from a re-analysis of the deposited data

Results flagged for a closer look

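Over 16 sets of values (8 enzymes in the IgG control and in the non-responder tumors), 1 tumor stood far from its group. Tm7sf2 was 5.43 CPM in IgG control replicate 1, the next highest control was 3.64 CPM and the lowest 2.81 CPM, so the gap was 0.686 of the range. Chance sets off about 1 in 20 such checks. In the same tumor the other 7 enzymes were the lowest of the 8 controls.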

How the results depend on the processing

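No paired analysis was possible because the groups share no replicate numbers. The number of enzymes past the threshold in responders against non-responders was 1 in place of 0 with the mitochondrial share as a covariate, without the 3 tumors with most mitochondrial counts, in a fit of the 2 groups alone and in DESeq2, and 0 without any single tumor. Against IgG controls it was 3 with the covariate, 6 without those 3 tumors and 0 to 6 when single tumors were left out, 0 without responder replicate 15 or 16. In the other comparisons it was 0 throughout. Over all genes, responders against non-responders gave 5435 with the covariate, 5802 without the 3 tumors and 1039 to 3567 without single tumors, the lowest without responder replicate 15. Responders against IgG controls gave 6462, 7409 and 1398 to 5682, again lowest without replicate 15 and highest without IgG control replicate 1. Non-responders against IgG controls gave 1, 1 and 0 to 7, and 10 in DESeq2, and all aPD-1 tumors 0 to 8 without single tumors and 86 in DESeq2. The pairs past the threshold were 0 within the non-responders, 9 without the 3 tumors and 9 to 26 without single tumors, with 16 without non-responder replicate 12. Some small log2 fold changes turned sign and none of these passed. Sc5d between responders and non-responders was -0.019 without a filter, -0.067 with the covariate and -0.0023 without the 3 tumors, and -0.21 to 0.18 without single tumors. Tm7sf2 there was -0.11 to 0.26 and Hsd17b7 -0.42 to 0.0070 without single tumors. Tm7sf2 between non-responders and IgG controls was -0.11, -0.17 and -0.14 to 0.16 in the same order, and Ebp 0.0093 with total counts and 0.0098 with the covariate. Tm7sf2 between responders and IgG controls was -0.086 to 0.18 without single tumors. For all aPD-1 tumors Tm7sf2 was -0.022 with the covariate, -0.022 without the 3 tumors and -0.053 to 0.18 without single tumors, and Ebp -0.015 to 0.073. The causes were not tested. With 2 responders, and with 76 to 176 counts for Tm7sf2, small differences were not detectable.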
